A study of Mus musculus with 21 samples.

Results

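The mammary tumours compared here lie at both ends of a range of beta-casein RNA. Among 13 tumours hybridised on 4 array slides (1 to 4), the members were chosen by the measured log ratio of Csn2, the beta-casein gene, and the 5 lowest were set against the 5 highest across all other genes. These 10 tumours are members of a series of 20 tumours on 21 arrays. The mice carried 1 of 4 transgenes driven by the MMTV promoter, with 5 mice each: ATX (autotaxin), which cells release and which produces lysophosphatidic acid (LPA), or LPA1, LPA2 or LPA3, all receptors for LPA. The MMTV promoter acts mainly in mammary epithelium and is also known to be active in salivary gland. Each tumour came from its own mouse, and the labels give neither age, strain nor parity. Tumour RNA was labelled with Cy5 and whole-mouse RNA with Cy3 on every array, with no dye swap, so each value is the log2 ratio of a tumour to the same kind of reference. No array held normal mammary gland. A log2 ratio compares tumours for a given gene and sets no gene's level against another's.

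Beta-casein is a main protein of mouse milk, made by the secretory cells that line the alveoli. In those cells prolactin binds its receptor, the kinase Jak2 phosphorylates the transcription factors Stat5a and Stat5b, and these enter the nucleus and bind the promoters of milk protein genes. The casein genes lie side by side in the genome and are known to be switched on together in pregnancy and lactation, with Elf5 as another factor that alveolar cells need.

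The low side held LPA2 mouse 3, LPA3 mouse 5, ATX mouse 3, LPA3 mouse 3 and LPA3 mouse 1, in rising order of Csn2. On the high side were ATX mouse 4, LPA3 mouse 2, ATX mouse 2, LPA1 mouse 3 and ATX mouse 1, in the same order. By transgene, the low side held 3 LPA3, 1 ATX and 1 LPA2 tumours and the high side 3 ATX, 1 LPA1 and 1 LPA3 tumours. LPA2 mouse 4, ATX mouse 5 and LPA1 mouse 4 lay between them and entered no group. By slide, the low tumours were 1 from slide 1, 3 from slide 2 and 1 from slide 3, whereas the high tumours were 2 from slide 3 and 3 from slide 4. Slide 3 was thus the only slide with tumours of both sides, namely LPA2 mouse 3 against ATX mouse 4 and LPA3 mouse 2. For most of the comparison the slide and the side cannot be told apart, and the results are therefore also given as the slope on Csn2 within slides, from a fit over all 13 tumours with the slide as a block. ATX mouse 3 was the only one of the 13 tumours on slide 1, so the block takes up its values and it does not inform the slope. That slope is scaled to the gap in Csn2 between the sides, −4.50, so that it reads as a difference of low minus high.

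Some arrays stood apart. On LPA2 mouse 3 the mean level of 28 salivary gland genes was 4.75, against 0.54 in LPA3 mouse 5 and −1.84 to −0.90 in the other 11 tumours. The adipocyte genes in ATX mouse 1 had a mean level of 0.11 and the skeletal muscle genes −1.04, against −3.44 to −3.05 and −4.10 to −3.39 in the other 4 high tumours. The keratins Krt8 and Krt18, which mark luminal epithelium, were above the reference in all 10 tumours, at 1.04 to 2.54 and 1.46 to 2.83. Epcam, another luminal gene, was at 0.377 to 2.37 in them. Krt19, a further luminal keratin, was below the reference in LPA2 mouse 3 (−1.53) and LPA3 mouse 5 (−0.275), and at 1.64 to 4.00 in the rest. In bulk tumour RNA, fewer cells of a type and less RNA per cell cannot be told apart.

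The 250 bases before the start of 3 milk protein genes with a STAT5 type motif are shown with that of Csn1s2a, the casein gene other than Csn2 with the largest difference between the sides, because all 4 genes were low in the same tumours. The sequences are from RefSeq on build GRCm38.p6, written in the direction of the gene, with matches to TTCNNNGAA in capitals, a palindrome that reads the same on both strands. Csn2 (chr5:87699426-87699675, minus strand) and Csn1s1 (chr5:87665958-87666207, plus strand) belong to the casein cluster, as does Csn1s2a (chr5:87774200-87774449, plus strand), whereas Glycam1 lies on another chromosome (chr15:103565082-103565331, minus strand).
Csn2: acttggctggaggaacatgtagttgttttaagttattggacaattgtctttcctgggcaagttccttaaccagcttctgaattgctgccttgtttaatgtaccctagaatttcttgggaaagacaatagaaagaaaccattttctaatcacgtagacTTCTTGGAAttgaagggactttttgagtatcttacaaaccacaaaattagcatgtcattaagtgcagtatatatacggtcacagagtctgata
Csn1s1: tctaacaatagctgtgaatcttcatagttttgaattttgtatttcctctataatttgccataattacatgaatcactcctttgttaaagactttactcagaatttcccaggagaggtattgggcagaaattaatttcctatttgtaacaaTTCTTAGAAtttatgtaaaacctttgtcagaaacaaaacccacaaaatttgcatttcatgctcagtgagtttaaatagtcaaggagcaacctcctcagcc
Glycam1: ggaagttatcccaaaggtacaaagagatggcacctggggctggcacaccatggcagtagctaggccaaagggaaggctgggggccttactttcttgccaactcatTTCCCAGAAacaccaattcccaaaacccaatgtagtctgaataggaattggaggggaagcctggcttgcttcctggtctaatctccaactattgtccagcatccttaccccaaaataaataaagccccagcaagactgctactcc
Csn1s2a: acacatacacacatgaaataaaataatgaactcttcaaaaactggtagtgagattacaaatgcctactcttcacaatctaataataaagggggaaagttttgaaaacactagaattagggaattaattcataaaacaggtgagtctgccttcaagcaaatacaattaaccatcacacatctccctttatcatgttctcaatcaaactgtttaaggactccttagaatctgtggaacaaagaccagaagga
The match began 93 bases before the gene start in Csn2, 100 bases in Csn1s1 and 145 bases in Glycam1, and these letters are not in the window of Csn1s2a. Of the promoters of genes in the milk lists that the reference table holds, 3 of 31 (9.68%) had a match, and these are the 3 shown above. Of all promoters of the same length, 2306 of 32851 (7.02%) had one. The window of Wap, a gene also lower in the low tumours, had no match and is not shown. A match is a description of the letters and says nothing about binding in these tumours.

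The rule used Csn2, so its values are a description. The 5 low tumours had Csn2 log2 ratios of 0.84, 2.08, 6.25, 6.60 and 6.94, in the order given above, with a mean of 4.54 ± 2.86 (SD, n = 5). The 5 high tumours had 8.56, 8.76, 9.03, 9.07 and 9.80, with a mean of 9.04 ± 0.473 (SD, n = 5). The low side was thus made of LPA2 mouse 3 and LPA3 mouse 5 far below all others, a gap of 4.18 below the next tumour, and of 3 tumours much nearer to the rest. Just outside the low side lay LPA2 mouse 4 at 7.83, 0.889 above LPA3 mouse 1. Just outside the high side lay LPA1 mouse 4 at 8.18, 0.372 below ATX mouse 4, and ATX mouse 5 at 8.17. An earlier array of LPA1 mouse 4, on another slide, read 8.36 for Csn2, a difference of 0.175 from the array used. That gap was smaller than the median absolute difference between the 2 arrays, which was 0.399 over 19084 genes (Pearson r 0.765). Stat5a read 0.855 on the array used and 2.49 on the earlier one, and Stat5b 0.238 and −0.966. The table holds 1 Csn2 feature, so the rank rests on 1 probe. Ranking by the mean of Csn1s1, Csn1s2a and Csn3 gave the same 5 lowest tumours in the same order, while LPA1 mouse 4 took the place of ATX mouse 4 among the 5 highest.

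All 4 other casein genes were lower in every low tumour than in any high tumour, as were 1.56% of all genes. Csn1s1 and Csn1s2a encode alpha caseins, and Csn3 encodes kappa-casein, which keeps the milk micelle in suspension. Their median difference was −3.11, against 0.02 over all 19086 genes tested. None reached an adjusted p under 0.05 in the comparison of both sides, and neither did any other gene, so that the share called was 0.0% of all genes. The smallest adjusted p was 0.0939 (limma with Benjamini-Hochberg adjustment over all genes, two-sided), and 2698 genes (14.1%) had an unadjusted p under 0.05.

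Csn1s1 was at 0.65, 1.16, 2.36, 2.94 and 3.07 in the low tumours and at 4.44, 4.81, 4.56, 4.85 and 5.39 in the high tumours. Both sides followed the order of Csn2 closely, and the 3 tumours between lay at 3.43, 4.42 and 5.18. The difference of low minus high was −2.77 (SE 0.466, limma adjusted p 0.0939). Within slides the slope, scaled to the same gap in Csn2, was −2.10 (SE 0.201, limma adjusted p 0.00487).

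Csn1s2a was at 0.15, 0.64, 5.37, 5.88 and 6.11 in the low tumours and at 7.42, 7.78, 7.45, 8.71 and 8.45 in the high tumours. LPA2 mouse 3 and LPA3 mouse 5 again lay far below all others. The difference was −4.33 (SE 1.18, limma adjusted p 0.177), and the slope within slides was −4.31 (SE 0.279, limma adjusted p 0.000183). This gene was the only one of the 28 called within slides that was also called there without LPA2 mouse 3, at −4.64 (limma adjusted p 0.0191). Without both LPA2 mouse 3 and LPA3 mouse 5 no gene was called within slides, and 1250 genes had an unadjusted p under 0.05.

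Csn3 was at 0.62, 3.76, 3.95, 4.08 and 4.37 in the low tumours and at 5.34, 5.63, 5.74, 6.05 and 6.84 in the high tumours. LPA2 mouse 3 stood alone at the bottom, while LPA3 mouse 5 lay beside the other low tumours, unlike its place for Csn2. The difference was −2.56 (SE 0.654, limma adjusted p 0.164), and within slides −2.13 (limma adjusted p 0.0733), which became −0.63 (limma adjusted p 0.923) without LPA2 mouse 3.

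Csn1s2b was at 0.46, −0.84, 0.19, 0.81 and 1.22 in the low tumours and at 2.10, 3.22, 1.89, 5.22 and 6.68 in the high tumours. It was the casein of widest spread among the high tumours, with an SD of 2.07 against 0.778 among the low ones. The difference was −3.45 (SE 0.867, limma adjusted p 0.163), and within slides −1.83 (limma adjusted p 0.392).

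On slide 3, where both sides meet, LPA2 mouse 3 lay below the mean of the other 3 tumours by −3.90 for Csn1s1, −7.07 for Csn1s2a, −2.41 for Csn1s2b and −4.85 for Csn3. On slide 2, LPA3 mouse 5 lay below the mean of its 3 slide mates by −1.99, −5.48, −2.46 and −0.50 for the same genes. All 4 caseins were therefore lower in the tumour of lowest Csn2 on both slides, with Csn3 on slide 2 the smallest of these gaps.

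**Figure D1:**
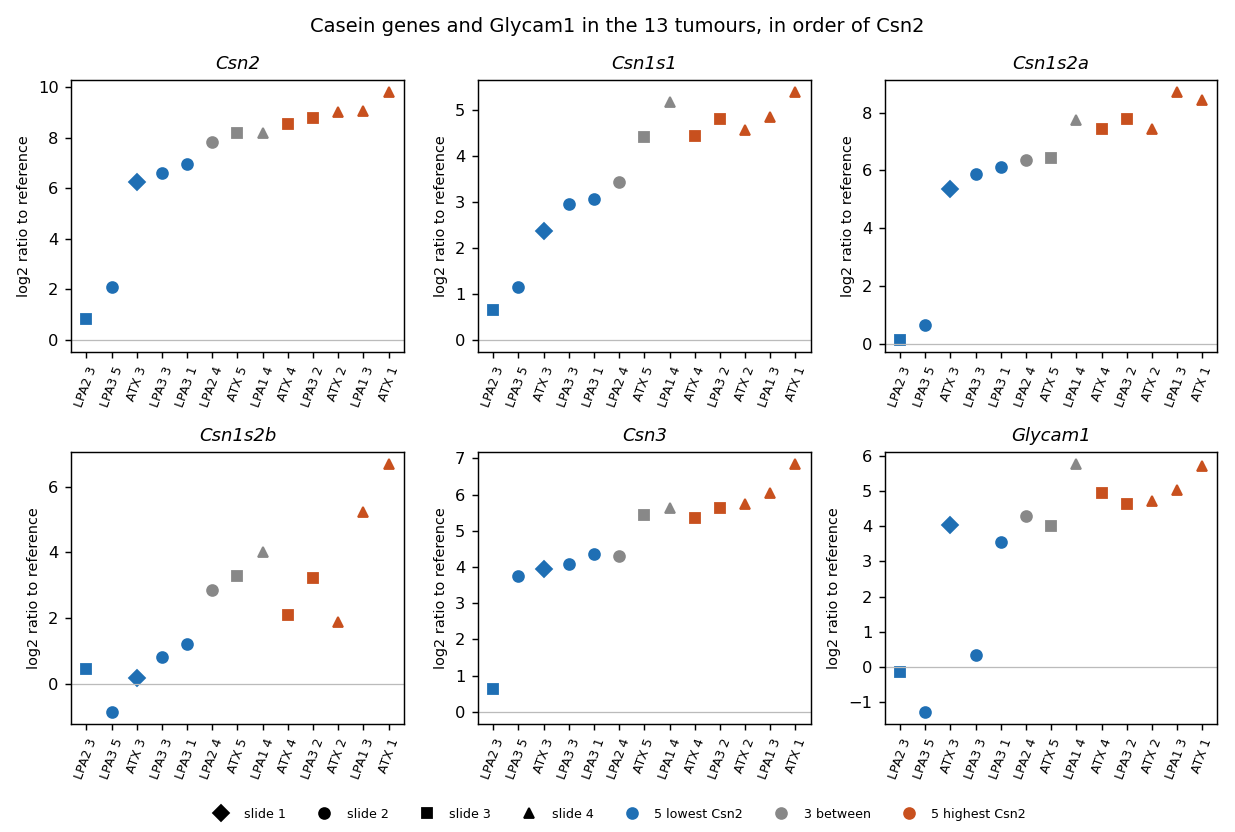
Log2 ratio to the reference (y axis) of the casein genes and Glycam1 in the 13 tumours, ordered along the x axis by Csn2. Each point is 1 tumour, its shape gives the slide and its colour the side. LPA2 3 and LPA3 5 stand far below the others for Csn2 (0.84 and 2.08) and Csn1s2a (0.15 and 0.64), and for Csn3 only LPA2 3 does (0.62).

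Genes next to the caseins on the reference chromosome had differences of both signs, from −0.873 to 2.33. In the reference order, Sult1d1 lay before the cluster and had a difference of −0.873. Prr27 and Odam, which lie between Csn1s2b and Csn3, had differences of 1.51 and 0.551, and Cabs1 and Smr3a, beyond Csn3, had 0.358 and −0.433. No measured neighbour other than the caseins, from Sult1b1 to Enam, had an unadjusted p under 0.05 in the comparison of both sides, and within slides Prol1 did, with a slope of 2.46 in the direction opposite to the caseins.

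Other milk protein genes were also lower on the low side, all 14 of the measured whey and minor milk protein genes by their mean, with a median difference of −1.07, while 52.1% of all genes were higher there. Of these, 7 had an unadjusted p under 0.05, all of them lower, and 5 had sides that did not overlap, beside 5.62% and 1.56% of all genes. Within slides the median was −0.74 and 12 of 14 were lower, with 54.4% of all genes higher. Of these, 7 had an unadjusted p under 0.05, all lower, beside 3.29% of all genes.

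Wap, the whey acidic protein, was at −0.08, −1.52, 1.77, −0.32 and 3.51 in the low tumours and at 4.62, 4.91, 4.28, 5.04 and 5.00 in the high tumours. The high tumours lay within a narrow band, and ATX mouse 3 and LPA3 mouse 1 were the highest of the low ones. The difference was −4.10 (SE 0.786, limma adjusted p 0.104), and within slides −3.09 (limma adjusted p 0.1).

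Glycam1, a mucin-like protein secreted into milk, was at −0.14, −1.28, 4.02, 0.33 and 3.55 in the low tumours and at 4.95, 4.62, 4.71, 5.03 and 5.70 in the high tumours. The same pair of low tumours, ATX mouse 3 and LPA3 mouse 1, came nearest the high side. The difference was −3.71 (SE 0.935, limma adjusted p 0.163), and within slides −3.05 (limma adjusted p 0.0623).

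Cel, the bile salt stimulated lipase that pancreas and lactating mammary gland secrete, was at 0.32, −0.08, 0.60, 0.11 and 0.59 in the low tumours and at 2.24, 4.10, 1.82, 4.11 and 5.13 in the high tumours. All low tumours lay near the reference, with an SD of 0.298, and it was ATX mouse 4 and ATX mouse 2 that were lowest among the high ones. The difference was −3.17 (SE 0.571, limma adjusted p 0.101), and within slides −1.60 (limma adjusted p 0.351).

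Olah, the thioesterase that ends fatty acid synthesis early and gives milk its medium-chain fats, was at −0.02, 0.00, 2.65, 0.11 and 2.63 in the low tumours and between 2.83 and 4.49 in the high tumours. Mfge8, a protein of the milk fat globule that binds dying cells, was at −0.33 to 2.28 in the low tumours and 2.38 to 4.48 in the high tumours. The differences were −2.56 and −1.86, and neither passed the test (limma adjusted p 0.161 and 0.182). The slope of Mfge8 within slides was −1.44 (limma adjusted p 0.0927), −1.72 without LPA3 mouse 5 (limma adjusted p 0.018) and −0.83 without LPA2 mouse 3 (limma adjusted p 0.87). Lalba, the alpha-lactalbumin of lactose synthesis, differed less, by −1.14 (limma adjusted p 0.308), and its sides overlapped, since LPA3 mouse 5 at 2.56 lay above ATX mouse 2 at 2.35.

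Some genes of the list did not follow the caseins. Ltf (lactoferrin) was at 1.14 and 0.25 in the high tumours ATX mouse 4 and ATX mouse 2, below 3 of the low tumours in the first case and 4 in the second. Wfdc12 was at 4.14 in LPA2 mouse 3, where Csn2 was lowest, and at −2.88 in LPA3 mouse 2, where Csn2 was high, and its slope within slides had the opposite sign, 1.32. Muc1, Lcn2, Tph1, Folr1 and Wfdc18 had differences of −0.84 to −0.34, with overlapping sides.

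Genes of milk fat and lipid synthesis were lower on the low side for 16 of 18 measured members, with a median of −1.16, which was −0.61 without ATX mouse 1. Of these, 9 had an unadjusted p under 0.05, all lower, beside 5.62% of all genes, and 1 had sides that did not overlap, beside 1.56%. Within slides the median was −0.76, and 4 had an unadjusted p under 0.05, all lower, beside 3.29% of all genes. Btn1a1, the butyrophilin of the milk fat globule membrane, was that non-overlapping gene, at 0.03, −0.15, 1.45, 0.69 and 1.69 in the low tumours and 2.22, 4.50, 3.10, 4.83 and 4.82 in the high tumours. Its difference was −3.15 (SE 0.574, limma adjusted p 0.102), and within slides −1.80 (limma adjusted p 0.161).

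Fabp3, Cd36 and Cidea, which bind, take up and store fatty acids, had differences of −4.14, −3.55 and −2.34 (limma adjusted p 0.136, 0.188 and 0.323). ATX mouse 1, the tumour with adipocyte genes well above the other high tumours, had the highest level of all 3 genes, at 4.399, 2.10 and 1.43. The other high tumours spanned −1.70 to 1.85 for Fabp3, −3.19 to 1.83 for Cd36 and −4.79 to −1.06 for Cidea. For Cd36, LPA1 mouse 3 at 1.83 thus lay close to ATX mouse 1. How much adipose tissue RNA added to these differences was not tested.

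**Figure D2:**
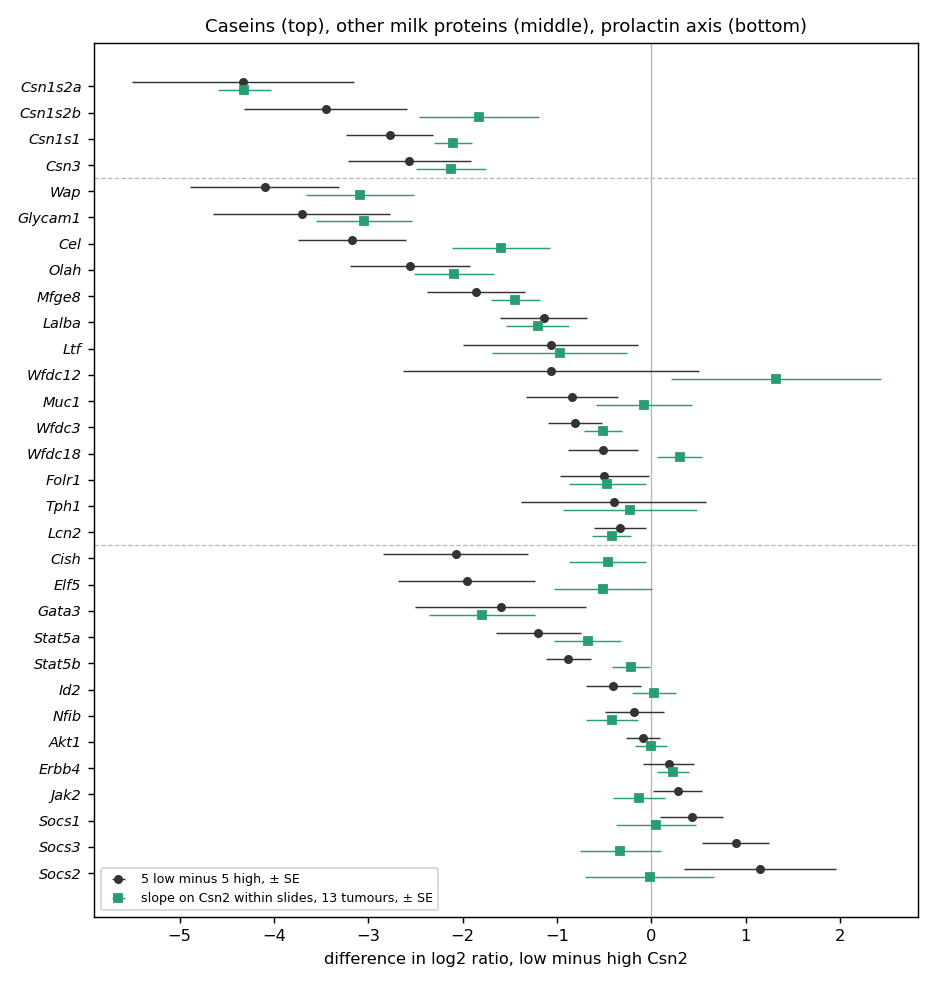
Difference in log2 ratio, low minus high Csn2 (x axis), for each measured gene (y axis) of the caseins, other milk proteins and the prolactin axis. Black circles compare the 5 low with the 5 high tumours and green squares give the slope on Csn2 within slides over 13 tumours, with bars of 1 SE. The caseins lie between −4.33 and −2.56 in the comparison of both sides, and Cish and Elf5 lie nearer 0 within slides (−0.46 and −0.52) than between the sides (−2.07 and −1.95).

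The genes of the prolactin pathway had smaller differences than the caseins. The 13 measured genes had a median difference of −0.18, with 8 lower and 5 higher, and of these 4 lower and 1 higher had an unadjusted p under 0.05, beside 5.62% and 8.51% of all genes. The prolactin receptor gene Prlr was not measured here. Stat5b was the only one with sides that did not overlap, as for 1.56% of all genes in that direction, at −0.18, −0.43, 0.18, −0.49 and −0.79 in the low tumours and 0.31, 0.48, 0.25, 0.58 and 1.06 in the high tumours. Its difference was −0.88 (SE 0.241, limma adjusted p 0.177), and within slides −0.22 (limma adjusted p 0.839).

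Stat5a was at 0.65, −0.25, 1.42, 0.35 and 0.31 in the low tumours and at 1.03, 2.06, 1.40, 0.85 and 3.13 in the high tumours, so the sides overlapped through ATX mouse 3. The difference was −1.20 (SE 0.454, limma adjusted p 0.279). Elf5 was at 4.24, 1.30, 1.26, 2.92 and 3.42 against 2.86, 4.87, 3.73, 5.43 and 6.03. LPA2 mouse 3, the tumour of lowest Csn2, thus had the highest Elf5 of the low side, and the difference of −1.95 (limma adjusted p 0.271) was −0.52 within slides.

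Of the genes that STAT5 is known to induce as feedback inhibitors, Cish and Socs2 took opposite signs. Cish was at 0.54, −3.60, 0.62, −2.35 and −1.62 in the low tumours and at 0.11 to 1.71 in the high tumours, with LPA2 mouse 3 and ATX mouse 3 inside the range of the high side. Socs2 was at −1.21 to 1.94 in the low tumours and −2.42 to 1.36 in the high tumours, a difference of 1.15 (limma adjusted p 0.553). Socs3, which cytokines induce, was higher in the low tumours by 0.90 (limma adjusted p 0.298) but by −0.33 within slides. Gata3, the factor of luminal cells, was at −2.05 in LPA2 mouse 3 and between 0.96 and 3.89 in the other 9 tumours of both sides, and its difference of −1.60 (limma adjusted p 0.46) was −0.77 without that tumour.

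Esr1, Pgr and Tnfsf11, genes of hormone-sensing cells, each had their highest levels in ATX mouse 3 of the low side and in ATX mouse 4 and ATX mouse 2 of the high side. Esr1, the oestrogen receptor, was at −0.25, −0.75, 2.60, −0.41 and −0.18 in the low tumours and at 3.60, 0.45, 3.87, 2.21 and 2.53 in the high tumours. ATX mouse 3 was the only low tumour with Esr1 above the reference, the other 4 low tumours lay below all high tumours, and LPA3 mouse 2 was the lowest of the high tumours, so the ATX tumours of both sides lay at 2.53 to 3.87. The difference was −2.33 (SE 0.756, limma adjusted p 0.223). Pgr, the progesterone receptor, and Tnfsf11, the RANK ligand it is known to induce, were highest in ATX mouse 3, ATX mouse 4 and ATX mouse 2 (1.77 to 3.18 for Pgr and 4.53 to 5.17 for Tnfsf11). Their differences were −0.76 and −1.53 (limma adjusted p 0.629 and 0.647). The list for such cells had 9 measured members and was split, with 5 lower and 4 higher in the low tumours. Its median difference was −0.46, and −0.25 within slides. Prom1, another member, differed in the opposite direction, by 2.40 (limma adjusted p 0.266). Prom1 was highest in LPA2 mouse 3 (3.32) and LPA3 mouse 3 (2.79), where Esr1 lay below the reference.

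Across all genes, 1625 (8.51%) were higher and 1073 (5.62%) lower on the low side at an unadjusted p under 0.05, and the sides did not overlap for 824 genes (4.32%), 526 of them (2.76%) higher and 298 (1.56%) lower. The 16 genes of smallest p, 8 in each direction, had differences of 1.11 to 2.78 and of −3.17 to −1.27. Higher on the low side were 2610028H24Rik, Zim1, Slc51a, Fsd1, Kcnj12, Prph, Abca6 and Mttp, and lower were Ccnj, Spns3, Lsm14b, Hhipl2, Zdhhc21, Csn1s1, Zfp459 and Cel. Apart from Csn1s1 and Cel they share no list here, and they include a microsomal carrier that loads lipoproteins (Mttp), a neuronal intermediate filament (Prph) and a cyclin (Ccnj).

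The 3 tumours between the sides were not placed alike for these genes. LPA2 mouse 4, on slide 2 with Csn2 at 7.83, lay nearer the mean of the low side for 13 of the 16 genes, whereas ATX mouse 5 on slide 3 did so for 5 and LPA1 mouse 4 on slide 4 for 2. Ccnj was at −0.80, −1.28, −0.94, −0.97 and −0.87 in the low tumours, at 0.14 to 0.43 in the high tumours and at −1.77 in LPA2 mouse 4. Lsm14b was at −1.37 to −0.80 in the low tumours, at −0.10 to 0.99 in the high tumours and at −1.63 in LPA2 mouse 4. Of all 2698 genes at an unadjusted p under 0.05, LPA2 mouse 4 lay nearer the low mean for 2127, ATX mouse 5 for 1104 and LPA1 mouse 4 for 992. Among the caseins, LPA2 mouse 4 lay nearer the low mean for 1 of 4. These counts fall both in the order of Csn2 and in that of the slides, and these cannot be told apart here.

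Within slides, 2276 of the 2698 genes had the same direction, but 346 of them reached an unadjusted p under 0.05 and 9 were called. Over all genes, 8.97% reached that p within slides in either direction and 0.147% were called. Both fits use the tumours that picked the 2698 genes, so the shared direction is no independent support. The slope of Ccnj was −0.40 and that of Lsm14b −0.42 (limma adjusted p 0.663 and 0.645). The arrays of slides 1 and 2 also had a narrower spread, with an interquartile range of the log2 ratios of 0.873 to 0.998 on 5 arrays, against 1.07 to 1.43 on the 8 arrays of slides 3 and 4. The SDs of the log2 ratios overlapped, at 1.175 to 1.281 against 1.213 to 1.481. Log2 ratios of exactly 0, which no source used here explains, numbered 3292 to 3467 on the former and 2180 to 2933 on the latter. Of the 16 genes, 3 had such a value in a low tumour and 0 in a high tumour.

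Leaving out LPA2 mouse 3, 156 genes (0.817%) passed an adjusted p under 0.05, 100 higher and 56 lower on the low side. That comparison sets slides 1 and 2 against slides 3 and 4 with no slide in common, so slide and side cannot be told apart in it. LPA2 mouse 4 lay nearer the low mean for 136 of the 156, and 14 had an unadjusted p under 0.05 within slides in the same direction, beside 8.97% of all genes in either direction. Csn1s1 (−2.43), Csn3 (−1.88) and Muc15 (−2.79) were among the genes called (limma adjusted p 0.0416 each). Leaving out LPA3 mouse 5 as well, 5 genes passed, namely Raly, Lrp5, Elf2, Terb2 and Smco4, all lower on the low side.

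These 5 are named because the count is small, after their values were seen, and they did not share 1 layout. Lrp5, a Wnt co-receptor, was at 1.03 in LPA2 mouse 3 on slide 3 and at −1.41 to −0.71 in the other 4 low tumours, on slides 1 and 2. It was at 0.95 to 1.78 in the high tumours, at −1.15 in LPA2 mouse 4 on slide 2, and at 1.13 and 1.24 in ATX mouse 5 and LPA1 mouse 4 on slides 3 and 4. Elf2 and Raly had the same layout, at 1.14 and 0.80 in LPA2 mouse 3 and at −0.59 and −1.08 in LPA2 mouse 4. The slopes of Lrp5, Elf2 and Raly within slides were −0.06, −0.10 and 0.11. Smco4 was at 3.95 in LPA2 mouse 3, −1.74 to −0.87 in the other low tumours and 0.81 to 1.37 in the high tumours, and Terb2 was at 0.36 in LPA2 mouse 3, 0.00 in LPA3 mouse 5 and −2.91 to −2.50 in the other low tumours, against −0.56 to 0.32. Within slides their slopes, 1.27 and 1.00, were opposite in sign to the differences between the sides, −1.31 and −1.47.

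**Figure D3:**
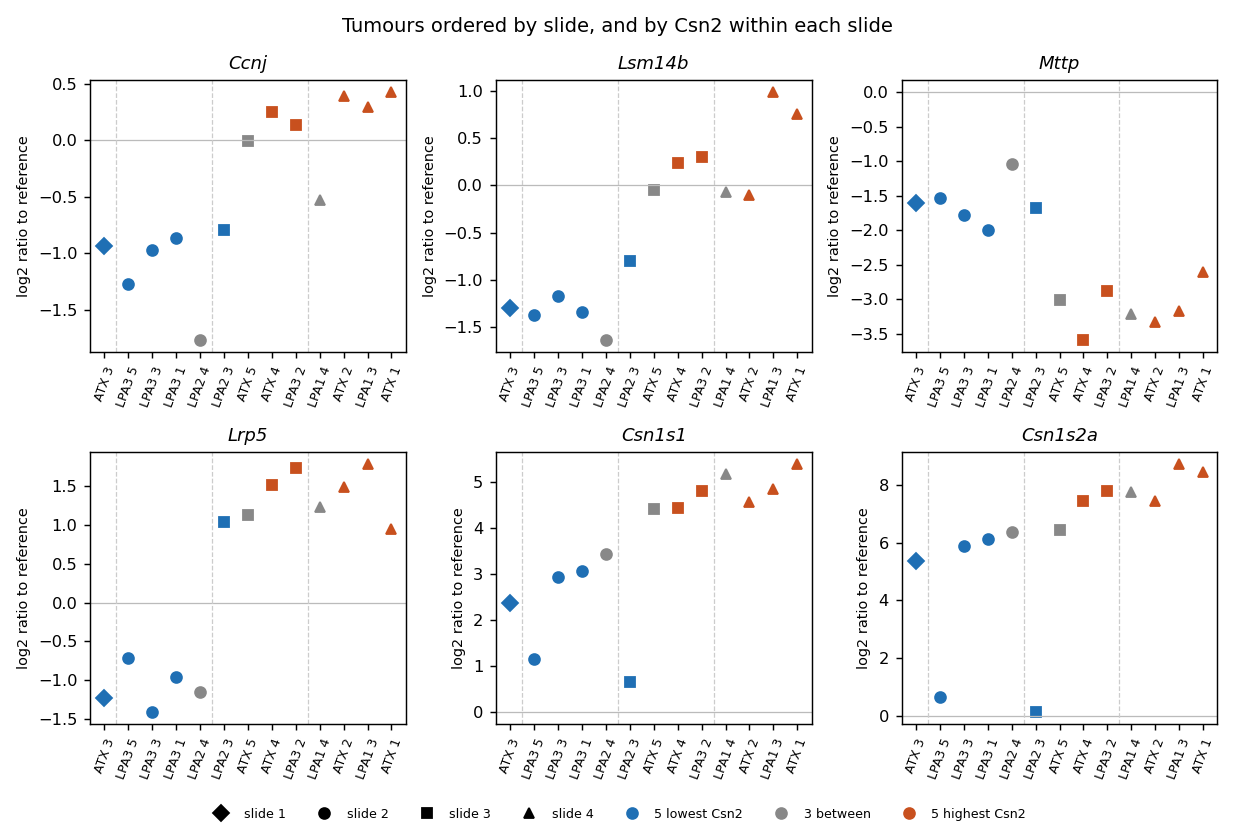
Log2 ratio to the reference (y axis) of 6 genes, chosen after their values were seen, in the 13 tumours ordered by slide and then by Csn2 (x axis). Dashed lines divide the slides, and shape and colour give slide and side. Lrp5 lies below 0 in all 5 tumours of slides 1 and 2 and above 0 in all 8 of slides 3 and 4, while Csn1s2a is lowest in LPA3 5 on slide 2 and LPA2 3 on slide 3 (0.64 and 0.15).

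Within slides 28 genes (0.147%) were called, 13 lower and 15 higher with low Csn2 (0.0681% and 0.0786%), and 1712 (8.97%) had an unadjusted p under 0.05, 1085 of them (5.68%) higher and 627 (3.29%) lower. These calls rest largely on LPA2 mouse 3 and LPA3 mouse 5: for 10 of the 13 lower genes both tumours lay below the other 11, for 13 of the 15 higher genes both lay above them, and for 25 of the 28 LPA2 mouse 3 was outside the range of the other 12 tumours. Without LPA2 mouse 3, 15 genes were called and 1 was shared. Of those 15, LPA3 mouse 5 was below every other tumour for 12 and above every other tumour for 2.

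The 13 lower genes were Csn1s1, Csn1s2a, Muc15, Lao1, Stc2, Fam20a, Bcl2l15, Lama1, Bambi, Pdzrn3, Skint1, Gm5168 and Olfr63. Of the gene lists for milk, the caseins had 2 members among them and the whey and milk fat lists 0. Muc15, a membrane mucin found on the milk fat globule of cattle, was at −0.99, 0.69, 2.88, 2.11 and 2.67 in the low tumours and at 4.12, 4.76, 4.67, 5.02 and 5.79 in the high tumours. The sides did not overlap, and the slope within slides was −2.70 (SE 0.306, limma adjusted p 0.00746).

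Lao1, an L-amino acid oxidase secreted into mouse milk, was at 1.02, −0.42, 3.57, 2.36 and 3.91 in the low tumours and at 4.36, 5.15, 4.31, 5.66 and 5.49 in the high tumours. Its slope was −2.61 (SE 0.365, limma adjusted p 0.0239). Fam20a, a pseudokinase that activates the Golgi kinase of secreted caseins, was at 0.64, 1.40, 2.68, 2.41 and 2.31 against 2.60 to 3.74, with a slope of −1.30 (limma adjusted p 0.0354). Both genes had their lowest values in the pair of tumours with the least Csn2.

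Stc2, the secreted glycoprotein stanniocalcin, was at −0.45, −3.02, 2.71, 0.18 and −0.31 in the low tumours and at 2.62, 3.45, 2.41, 2.28 and 3.07 in the high tumours. ATX mouse 3 lay among the high tumours, as it did for Esr1. The slope within slides was −2.13 (limma adjusted p 0.0239) and −2.86 without LPA2 mouse 3 (limma adjusted p 0.0624). Bcl2l15, of the Bcl-2 family, had a slope of −2.51 (limma adjusted p 0.0456), with −1.44 to 1.89 on the low side and 2.45 to 5.20 on the high side.

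For other genes of this set the remaining low tumours overlapped the high ones. Bambi, a decoy receptor for TGF-beta family ligands, was −1.84 in LPA2 mouse 3 and −0.70 in LPA3 mouse 5 and at 0.43 to 1.10 in the other low tumours, so that its difference between the sides was 0.11 while its slope within slides was −1.30 (limma adjusted p 0.0354). Lama1, a laminin chain of basement membranes, was −2.61 in LPA2 mouse 3 and 0.00 in LPA3 mouse 5, against 1.36 to 2.62 in the other 8 tumours of both sides. Pdzrn3, a ubiquitin ligase, was at −3.87 and −1.96 in the same pair and at −0.56 to 0.28 in those 8 tumours. Skint1 was −7.03 in LPA2 mouse 3, −0.88 in LPA3 mouse 5 and 0.00 to 0.31 in the other 8. Among the tumours between the sides, ATX mouse 5 was at −0.14 for Lama1 and −1.17 for Skint1, and LPA1 mouse 4 at −1.10 for Bambi. Each of these values lay below that of LPA3 mouse 5. The remaining values of the tumours between lay above LPA3 mouse 5 for these genes, as all of them did for Pdzrn3.

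The 15 higher genes were led by tissue kallikreins and other secretory genes of mouse salivary glands: Klk1, Klk1b5, Klk1b8, Klk1b9, Klk1b24, Egfbp2, Dcpp1, Dcpp2 and Mucl2, with Padi2, A2ml1, Olfr1312, Olfr1500, 1700001J04Rik and 5530401A14Rik. Dcpp1, a secretory protein of sublingual and parotid gland, was at 6.11 in LPA2 mouse 3, 0.21 in LPA3 mouse 5, −4.15 to −3.07 in the other low tumours and −4.66 to −2.38 in the high tumours. Egfbp2, a kallikrein that binds epidermal growth factor, was at 5.17, 0.61, −2.78 to −1.80 and −3.15 to −2.36 in the same groups. For Mucl2 the values were 5.37 and 3.09, then −3.17 to −2.20, and in the high tumours −3.81 to −2.48 except ATX mouse 4 at 1.27. The kallikreins are near-identical copies, and their probes may read one another, so their counts are not independent.

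A list of 32 salivary gland secretory genes, drawn up after these values were seen and so no support for its own direction, had 28 measured members. The median difference between the sides was 1.67, it was 0.53 without LPA2 mouse 3 and −0.05 without LPA3 mouse 5 as well. In LPA2 mouse 3 Pip was at 6.67, Klk1b27 at 7.45, Muc19 at 4.18, Bpifa2 at 3.56 and Egf at 5.00. In LPA3 mouse 5 Mucl2, Scgb1b27 and Scgb2b27 were above the reference at 3.09, 3.74 and 2.95, while Bpifa2 and Muc19 were below it at −2.85 and −0.54. Smr2 was high in LPA3 mouse 5 at 6.43 and in ATX mouse 3 at 4.85, and at 0.00 in LPA2 mouse 3. Amy1, of the same list, was below the reference in LPA2 mouse 3, at −1.53. Some members were also above the reference in high tumours, with Pip at 4.33 in LPA1 mouse 3 and Egf and Scgb1b27 at 2.15 and 2.31 in ATX mouse 1. LPA2 mouse 3 thus carried most of the list, and LPA3 mouse 5 a part of it at lower levels. Whether either sample held salivary gland tissue or the tumour cells made these products was not tested.

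**Figure D4:**
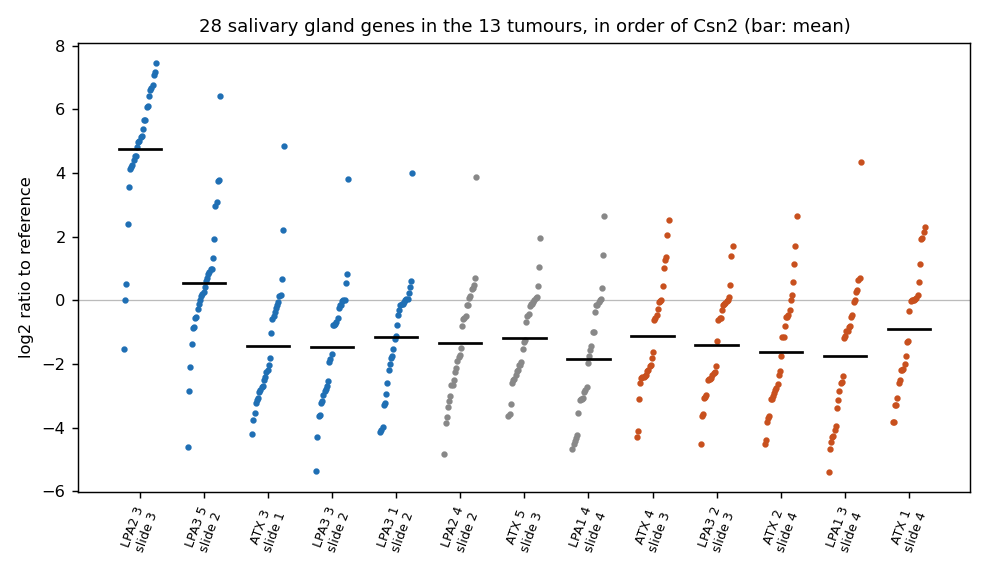
Log2 ratio to the reference (y axis) of 28 salivary gland genes, chosen after their values were seen, in the 13 tumours ordered by Csn2 (x axis). Each point is 1 gene and the bar is the mean. The mean is 4.75 in LPA2 3, 0.54 in LPA3 5 and between −1.84 and −0.90 in the other 11 tumours.

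LPA2 mouse 3 also differed in other lists. Its mean level of 24 cell division genes was −1.63, against −0.01 to 0.61 in the other low and −0.84 to 1.11 in the high tumours, and Mcm6, of the replication helicase, was at −3.28. The luminal factor Spdef was at 4.42 and Krt19 at −1.53. Genes of B and plasma cells had a mean of 2.26 there, against −0.18 to 0.71 in the other low and 0.55 to 1.16 in the high tumours, though ATX mouse 5, between the sides, had 2.75. Jchain, the joining chain of secreted antibodies, was at 5.56 there and 4.14 to 5.19 in the high tumours. Cell division genes had a median difference of −0.17 with this tumour and 0.23 without it.

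Among the remaining lists some kept the direction of their median within slides and others did not. Neutrophil genes were higher on the low side for 10 of 10 members, 7 at an unadjusted p under 0.05 beside 8.51% of all genes, with a median of 1.20, but the median within slides was −0.18. Cxcr2, the chemokine receptor of neutrophils, was at −0.30, 0.62, −0.32, 2.12 and 2.66 in the low tumours and −2.28 to −0.53 in the high tumours, and at 3.39 in ATX mouse 5. Macrophage genes had a median of 0.70 and 0.10 within slides. The neutrophil mean lay below the reference in every tumour of both sides, at −2.21 to −1.14 in the low and −3.38 to −2.14 in the high tumours. Between the sides it was 0.57 in ATX mouse 5, −1.21 in LPA2 mouse 4 and −2.22 in LPA1 mouse 4. The macrophage mean there was 2.07 in LPA1 mouse 4, 1.09 in LPA2 mouse 4 and 1.07 in ATX mouse 5.

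Liver genes, made chiefly by hepatocytes, lay far below the whole-mouse reference in all 13 tumours and were higher, nearer to 0, on the low side for 14 of 14 members, with a median difference of 0.74, and brain genes likewise for 11 of 13, with a median of 0.73. Of the liver genes 9 and of the brain genes 6 had an unadjusted p under 0.05, all higher, beside 8.51% of all genes. The sides did not overlap for 4 liver genes and 2 brain genes, beside 2.76%. Within slides the medians were 0.29 and 0.24, with 14 of 14 liver genes and 9 of 13 brain genes higher, beside 54.4% of all genes. There 1 of 14 liver genes and 3 of 13 brain genes were higher at an unadjusted p under 0.05, beside 5.68% of all genes. The mean level of the liver genes was −4.49 to −3.68 in the low and −5.40 to −4.38 in the high tumours. Fabp1, a liver fatty acid carrier, was at −6.31 to −4.55 against −7.88 to −7.00. LPA2 mouse 3, on slide 3, had the highest of these means. The interquartile range of ratios on slides 1 and 2 was narrower, while the SDs overlapped, as given above. The part of this spread in the differences of other genes below the reference was not tested.

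Squamous differentiation genes had a median of 0.46 and −0.08 within slides, with Ivl (involucrin) at −1.35 to 0.00 in the low and −3.92 to −1.80 in the high tumours. Mesenchymal transition genes had a median of 0.46 and 0.08 within slides, and fibroblast and collagen genes 0.27 and −0.22. Luminal epithelium genes had a median of −0.15 and −0.32 within slides, where 12 of 16 were lower, and 0.02 without both LPA2 mouse 3 and LPA3 mouse 5. Epithelial junction genes had a median of −0.38 and −0.28 within slides, with 14 of 20 lower in each. Cdh1, the E-cadherin gene, had a difference of −0.22 (limma adjusted p 0.856) and was lowest on the low side in LPA3 mouse 5, at −3.004, where the mean of the luminal list was 0.44 against 1.34 to 1.61 in the other low tumours. Krt7, a keratin of luminal cells, was higher on the low side by 1.53 (limma adjusted p 0.177) and by 0.07 within slides.

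**Figure D5:**
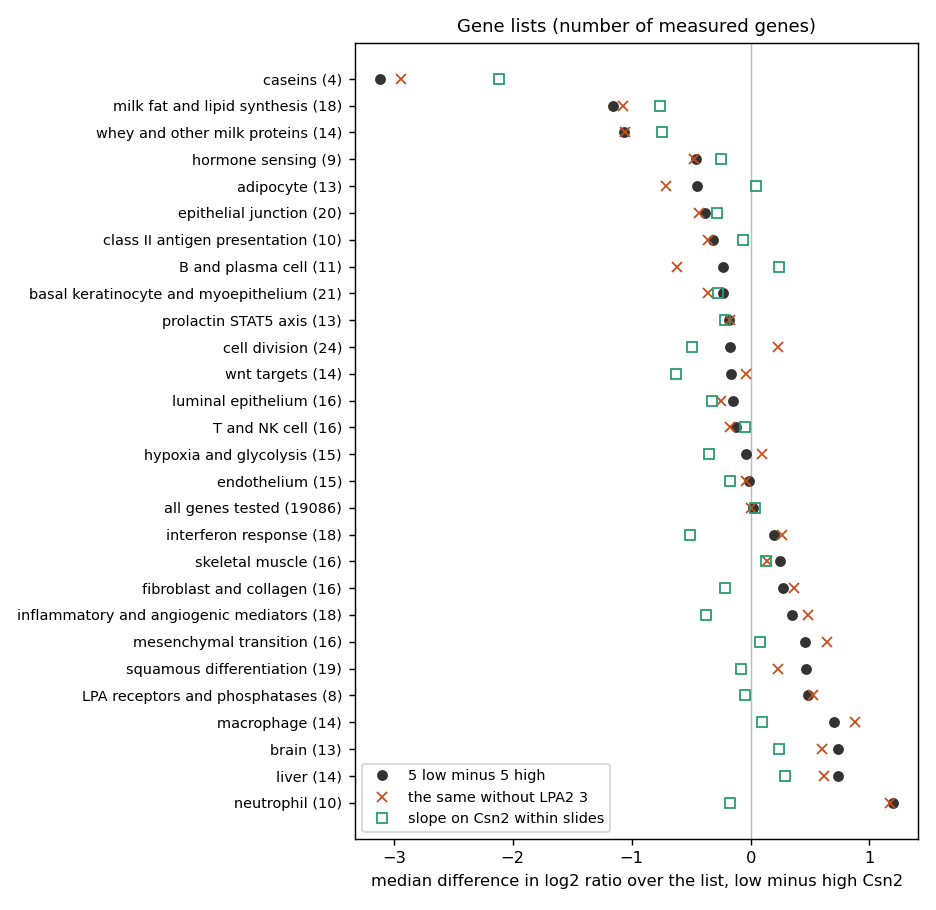
Median difference in log2 ratio over each gene list, low minus high Csn2 (x axis), with the number of measured genes beside its name (y axis). The salivary gland list, drawn up after its values were seen, is not shown (1.67 between the sides and 2.84 within slides). Black circles compare both sides, crosses leave out LPA2 3 and green squares give the slope on Csn2 within slides. The caseins stay lowest in all 3 (−3.11, −2.94 and −2.11), and the neutrophil list moves from 1.20 to −0.18 within slides.

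Since 3 of the 5 low tumours carried LPA3, the receptor genes were read in each tumour. Lpar3 was at 2.04 in LPA3 mouse 3 and 1.01 in LPA3 mouse 1, but at −0.27 in LPA3 mouse 5 and −2.40 in LPA3 mouse 2, so tumours of this transgene lay on both sides with unlike levels. Its difference was 1.56 (SE 0.594, limma adjusted p 0.281) and −0.07 within slides. Lpar2 was at 0.38 in LPA2 mouse 3 against 1.38 to 2.64 in the other low tumours. Lpar1 was at −2.89 in LPA1 mouse 3 and highest on the low side in LPA3 mouse 5, at −0.14. The labels do not say which species the transgenes come from, so the probes may miss their RNA, and these values do not check the genotypes. With ATX as a covariate no gene was called between the sides, and 2722 had an unadjusted p under 0.05.

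The 7 tumours of slides 5 and 6, which the rule did not use, offered little range for a repeat. Their Csn2 log2 ratios lay between 1.71 and 2.48, a span of 0.768 with a median of 2.03. No gene followed Csn2 across them at an adjusted p under 0.05 (limma), and 670 had an unadjusted p under 0.05. Their mean levels of the other caseins were 1.29 to 1.89 and of liver genes −1.34 to −0.86, which lay nearer to 0 than in the 5 high tumours for both lists. Their arrays also had a narrower spread. The SD of the log2 ratios over all features was 0.825 to 0.903 on them, against 1.19 to 1.43 on the 13 arrays of slides 1 to 4. Their Csn2 and casein levels are thus not set against those of the 13 tumours. The part of the narrower spread in these levels was not tested.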

How the data were processed

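The deposited value table holds 1 log ratio per feature and array for 21 Agilent 2-colour arrays (45220 features). The labels give Qiagen RNeasy extraction, Cy5 for tumour and Cy3 for whole-mouse RNA, and no dye swap. The authors' deposited values were taken as log2 ratios of tumour over reference from their range and the dyes, since the base, background correction and normalization are stated in no source used here; each array's median was 0. The number of arrays limits the precision.

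Features with 1 gene symbol in the platform annotation (33653) were averaged into 19087 genes, and Csn2 was left out of the tests. A gene was tested with at least 4 values a side. Low minus high was fitted with limma 3.58.1 in R 4.3.3 (lmFit and eBayes), with Benjamini-Hochberg adjustment over 19086 genes and a threshold of 0.05. A second fit, added after the data were seen, took Csn2 as a slope over 13 tumours with the slide as a fixed block. ATX mouse 3, alone on its slide, does not inform that slope. The named genes were the 8 of smallest p in each direction, the members of gene lists described, and calls within slides. The members and lists were chosen with earlier results of these data known. Summaries used Python 3.11.15, pandas 2.3.3, numpy 2.4.6, scipy 1.17.1 and matplotlib 3.10.9.

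On simulated data with 50 genes changed at each size among 19068, the comparison of both sides recovered 10, 30, 47 and 48 of them at log2 changes of 1, 2, 3 and 4, and the fit within slides 10, 36, 46 and 45. False calls numbered 4 and 6. The simulated noise was normal and independent, with the same SD for a gene in every tumour. It held no slide effect and no outlying tumour, unlike the real arrays, so these counts do not give the recovery in the real tumours. Alternatives left out each tumour, changed the group size, the slide term, the scaling, the probe summary and the treatment of values of 0. P-values measure the spread between these tumours, each from its own mouse.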

Additional observations from a re-analysis of the deposited data

Results flagged for a closer look

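In 160 groups of 5 tumours (a gene or a list mean on 1 side), 19 had a tumour far from the other 4, measured as its gap to the nearest of them divided by the range of the group. Of the 19, 8 were in LPA2 mouse 3 and 2 in LPA3 mouse 5. Chance puts about 5% of groups apart, but the groups include genes called within slides, and for 25 of those 28 LPA2 mouse 3 lay outside the other 12 tumours, so the count cannot be read against that share.

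LPA2 mouse 3 stood apart on the low side for Csn3 (share of the range 0.837, level 0.62), Skint1 (0.851, level −7.03), Klk1b8 (0.725, level 4.54), Klk1b9 (0.814, level 6.76), Olfr1312 (0.737, level 4.51) and 1700001J04Rik (0.721, level 5.58). The same tumour stood apart for the mean of the cell division genes (0.722) and of the adipocyte genes (0.911, level −1.69). ATX mouse 3 stood apart on the low side for 3 genes of hormone-sensing cells, Esr1 (0.831), Pgr (0.929) and Tnfsf11 (0.715). LPA3 mouse 5 did so for Lpar1 (0.758) and for the mean of the luminal genes (0.763).

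On the high side ATX mouse 1 stood apart for the means of the adipocyte genes (0.892), skeletal muscle genes (0.77) and luminal genes (0.728, level 0.75). ATX mouse 4 did so for Mucl2 (0.739), LPA1 mouse 3 for the mean of the class II antigen presentation genes (0.751, level 0.28) and ATX mouse 2 for Skint1 (1.0), where the other 4 high tumours were at 0.00.

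The slope on Csn2 differed between ATX and receptor tumours for 1 of 19086 genes tested, Htr2a, a serotonin receptor, by −8.15 (limma adjusted p 0.00692), while 745 genes had an unadjusted p under 0.05. Htr2a was at −4.07 in ATX mouse 3, 2.81 in ATX mouse 1 and −0.46 to 0.77 in the other 11 tumours, so the difference lay in those ATX tumours.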

How the results depend on the processing

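No gene was called between the sides with 4 tumours a side, ATX as a covariate, the slide as a random block (correlation −0.0125), scaled or quantile-normalized arrays, the median over probes, values of 0 as missing, genes with a value on all 13 arrays, the rank by other caseins or both arrays of LPA1 mouse 4 averaged. With the mouse number as a replicate block 0 were called and 1861 had an unadjusted p under 0.05; the labels give no pairing by that number. The count was 123 with 6 tumours a side, 23 with Csn2 as a slope over 13 tumours, 5 in the 8 receptor tumours, 253 with the slide as a fixed block, which rests on slide 3 and thus LPA2 mouse 3, 586 with array weights (LPA2 mouse 3 weighed 0.302), 152 over 20 tumours with the slide set as covariate, 28 within slides and 5 without LPA2 mouse 3 and LPA3 mouse 5. Leaving out each tumour gave 0 to 156, the highest without LPA2 mouse 3. Within slides the count of 28 ranged from 10 without LPA3 mouse 2 to 245 without LPA3 mouse 5, with 15 without LPA2 mouse 3. It was 0 without both LPA2 mouse 3 and LPA3 mouse 5, 14 with ATX as a covariate and 147 over 20 tumours. Bambi reversed from 0.11 to −1.30 within slides (limma adjusted p 0.0354). Of 28 list medians, 8 changed sign within slides and 21 in the 7 tumours of slides 5 and 6. The cause of these changes was not tested. The ranking by each Csn2 probe was not run, since the table holds 1.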
